A study of Mus musculus with 12 samples.

Results

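The collagen genes were taken as every protein-coding gene of the deposited count table whose symbol has the form Col, a number, a and a number, and 44 of the 54532 genes in the table met this rule. The libraries came from liver and subcutaneous fat of male mice given AAV8-TBGp, either as the null vector or carrying full-length human HKDC1 (hHKDC1 OE), through the tail vein at 10 weeks of age and then kept on a low-fat diet for 16 weeks. Each of the 4 groups, null liver, hHKDC1 OE liver, null fat and hHKDC1 OE fat, held 3 libraries. The thyroxine-binding globulin promoter restricts the transgene to hepatocytes, so that liver, not fat, is the tissue meant to express it. The methods do not give the strain of these mice. The fat libraries of a group came from 3 mice, as the study's supplement states. For liver the sources used here do not say that replicates were separate animals, nor whether liver and fat came from the same mice, so the liver p-values measure the spread between these libraries.

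Collagens are the structural proteins of the extracellular matrix, built from chains that wind around each other in a rope-like helix. Fibrillar collagens (types I, III and V among them) form the tensile fibres of connective tissue, type IV collagen forms the sheet of the basement membrane that surrounds every adipocyte and underlies vessels, and type VI collagen forms beaded filaments that are abundant in fat. The multiplexins, types XV and XVIII, are basement membrane collagens that carry glycosaminoglycan chains and release endostatin-like fragments. In liver, the fibrous collagens come mainly from stellate cells and portal fibroblasts, whereas hepatocytes are a known source of type XVIII. In whole-tissue RNA, fewer cells of a collagen-producing type and less collagen RNA per cell cannot be told apart.

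The 12 libraries held between 15496019 and 19954971 counts assigned to genes. The tissue labels were matched by their markers, since 6 adipocyte markers summed to between 14796 and 23951 CPM (counts relative to library size, with the library sizes scaled within each tissue by the trimmed mean of M values) in fat and to between 19.2 and 45.7 in liver, and 8 hepatocyte markers summed to between 64095 and 111063 CPM in liver and between 705 and 7440 CPM in fat. The mouse Hkdc1 row, which does not measure the human transgene, held at most 8 counts in any library. Of the hHKDC1 OE libraries, replicates 2 and 3 of each tissue are called knockouts in a description label while their title and treatment labels give overexpression, which was followed here. The fat libraries stood apart from one another in the cells they held: markers of B cells, T cells and lymph node stroma were high in hHKDC1 OE replicates 1 and 3, and skeletal muscle markers varied from 535 to 22996 CPM across both groups.

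The collagen genes made up between 0.413% and 1.49% of all counts in fat and between 0.0943% and 0.132% in liver. The 6 fat libraries differed from each other in this share more than the 6 liver libraries did. All members were measured, but many were near the floor of detection: between 29 and 35 members reached 10 counts in a fat library and between 19 and 25 in a liver library. Col2a1, Col9a1 and Col19a1, which belong to cartilage and to specialised basement membranes, held at most 7 counts in any library. The lengths over which the members were counted share few bases with other genes, at most 6.07% of the exonic bases (Col9a3, with Tcfl5).

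**Figure D1:**
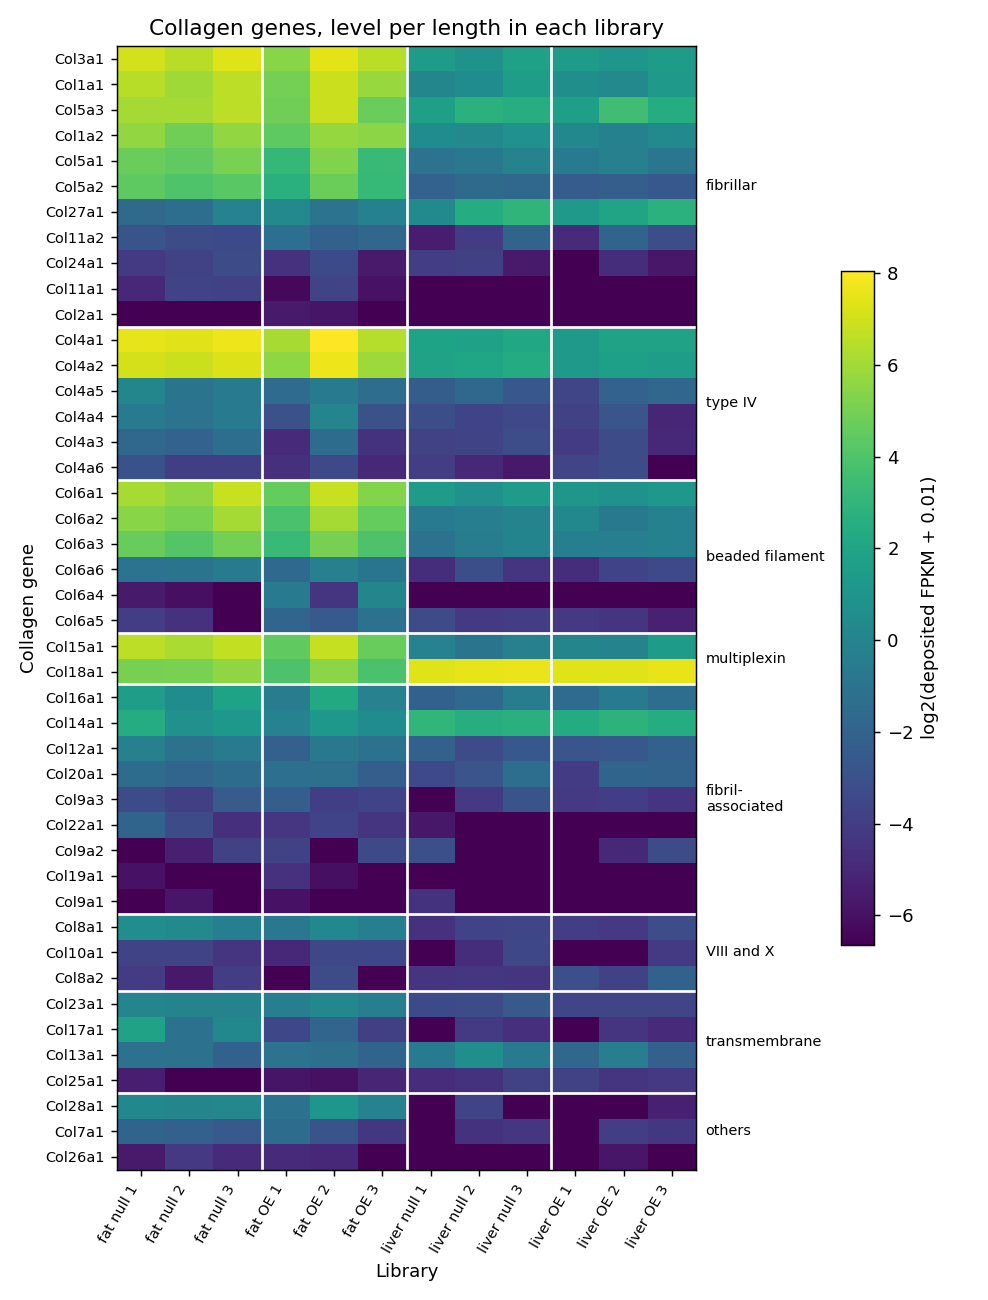
Heatmap of all 44 collagen genes (rows, by family) in the 12 libraries (columns), coloured by log2(deposited FPKM + 0.01). The brightest rows in fat are those of Col4a1, Col4a2 and the main chains of types I, III, V, VI, XV and XVIII, the brightest row in the 6 liver libraries is Col18a1, and Col6a4 stands out in hHKDC1 OE fat replicates 1 and 3.

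Per length, in FPKM (fragments counted per gene, corrected for gene length and library depth), fat collagen RNA was led by the basement membrane chains. In null fat, Col4a1 averaged 184 ± 18.6 FPKM (SD, n = 3) and Col4a2 138 ± 17.9 FPKM, followed by Col3a1 at 129 ± 37.8, Col15a1 at 91.9 ± 16.3, Col1a1 at 82.8 ± 19.2, Col6a1 at 77.1 ± 33.5, Col5a3 at 76.1 ± 16, Col6a2 at 48.3 ± 17.7, Col1a2 at 43.5 ± 12.2 and Col18a1 at 38.2 ± 8.56 FPKM. Neighbours in this order from Col15a1 to Col5a3 lay within 1 SD of each other. In null liver the order was different: Col18a1 averaged 180 ± 16.4 FPKM, and the next, Col14a1, 6.75 ± 1.30 FPKM. Col5a3, Col27a1, Col4a2 and Col4a1 followed at 5.25 ± 1.78, 4.90 ± 3.40, 4.26 ± 0.849 and 3.87 ± 0.603 FPKM, and these 4 did not differ beyond their spread. Col18a1 alone supplied between 77.5% and 83.3% of all collagen counts of a liver library and between 2.43% and 4.03% of those of a fat library.

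The first question was how the tissues differ when no transgene is present. Between null fat and null liver, 29 members could be tested, and edgeR's quasi-likelihood test at an adjusted p under 0.05 called 23 of them higher in fat and 4 higher in liver, against 33.8% of all 15259 genes tested called higher in fat and 30.5% called lower. The median log2 difference of the members was 3.80, beside 0.088 over all genes. Col7a1, Col8a1, Col17a1 and Col28a1 held under 10 counts in every null liver library and entered the test only through fat, where they were higher. Col4a3, Col4a4, Col6a6 and Col23a1 were under 10 counts in part of the null liver libraries. They too entered through fat, where they were higher. With at least 10 counts required in every library, 15 of 19 members were called higher in fat and 4 lower, beside 31.9% and 32% of all genes. With library size alone as the scaling, which moved the median of all genes to 0.98, 59.1% of all genes were called higher and 15% lower in fat, and 23 and 2 of the members.

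All 5 type IV genes tested, 6 of 8 fibrillar genes and all 4 beaded filament genes tested were called higher in fat. Col4a1, a chain of the ubiquitous basement membrane heterotrimer, held 180, 168 and 204 FPKM in the null fat libraries and 3.70, 3.38 and 4.55 FPKM in the null liver libraries. The groups were far apart, with a log2 difference of 5.51 (SE 0.235, edgeR adjusted p = 2.17e-06). Its partner chain Col4a2 held 140, 119 and 154 FPKM in null fat and 3.54, 4.05 and 5.20 FPKM in null liver, a log2 difference of 4.96 (SE 0.243, adjusted p = 3.28e-06). These 2 genes lie head to head on chromosome 8, Col4a1 on the minus strand (chr8:11198423-11312826) and Col4a2 on the plus strand (chr8:11312805-11449287, GRCm38), and their annotated first exons overlap by 22 bases. Those bases, chr8:11312805-11312826, are shown on the plus strand because both chains start from them, with the GC-box letters GGGCGG in capitals:
Col4a1 and Col4a2 shared 5′ ends: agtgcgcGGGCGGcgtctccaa

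Within a library the 2 chains kept a narrow ratio. Per length, Col4a1 over Col4a2 was between 1.28 and 1.47 in the 6 fat libraries and between 0.834 and 1.17 in the 6 liver libraries, so that the ranges did not overlap between the tissues. The minor type IV chains were far lower. Col4a3 and Col4a4, chains of the specialised network of kidney glomerulus and a few other sites, averaged 0.305 ± 0.0763 and 0.604 ± 0.119 FPKM in null fat and were called higher than in null liver by 1.91 and 2.74 on the log2 scale (edgeR adjusted p = 0.00417 and 0.000223). In null liver they held 7, 8 and 12 counts and 13, 8 and 11 counts, and they entered the test through fat, where they were higher. They form a second head-to-head pair on chromosome 1, with Col4a4 (minus strand) ending at 82586849 and Col4a3 (plus strand) starting at 82586921. The 71 bases between them, chr1:82586850-82586920, lie in no annotated exon and are shown on the minus strand as the counterpart of the Col4a1 and Col4a2 junction. Of the 3 motifs searched on both strands with no mismatch allowed, the TATA-box letters TATAAA, the CCAAT box and the GC box, none is in them:
Col4a3 and Col4a4 gap: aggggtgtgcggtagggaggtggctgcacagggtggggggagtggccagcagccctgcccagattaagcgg
Col4a5 and Col4a6 form the third such pair, on chromosome X, with 1308 bases between them. Col4a5 was called higher in null fat by 1.72 (adjusted p = 0.00863), and Col4a6 had too few counts to be tested.

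Among the fibrillar genes, Col3a1, which encodes type III collagen of pliable tissue, held 133, 89.4 and 165 FPKM in null fat and 2.79, 1.76 and 3.42 FPKM in null liver. The difference was 5.54 on the log2 scale (SE 0.371, adjusted p = 1.06e-05). Col1a1 and Col1a2, the chains of type I collagen, differed by 5.47 and 4.85, and Col5a1, Col5a2 and Col5a3, the type V chains that help set fibril diameter, by 5.28, 5.98 and 3.80 (edgeR adjusted p between 1.29e-06 and 2.88e-05 over these 5). Col3a1 and Col5a2 are neighbours on chromosome 1, 24614 bases apart. The 250 bases before the RefSeq start of Col3a1 (chr1:45311288-45311537, plus strand, GRCm38) are shown as an upstream window of a gene high in fat, with TATAAA in capitals:
Col3a1 upstream: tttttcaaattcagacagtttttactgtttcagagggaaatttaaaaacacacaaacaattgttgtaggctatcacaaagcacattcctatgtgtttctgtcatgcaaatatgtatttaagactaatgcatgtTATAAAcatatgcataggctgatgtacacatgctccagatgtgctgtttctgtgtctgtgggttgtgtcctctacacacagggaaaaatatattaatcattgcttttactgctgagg
The TATA-box letters are in 12.4% of the 32851 RefSeq windows of the same length on either strand, the CCAAT box in 33.8% and the GC box in 32.7%.

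The beaded filament genes Col6a1, Col6a2 and Col6a3, whose products assemble into type VI microfilaments, were higher in null fat by 4.91, 5.86 and 5.02 on the log2 scale (edgeR adjusted p = 2.03e-05, 5.17e-06 and 1.26e-05), and Col6a6, an alternative to the Col6a3 chain, by 3.17 (adjusted p = 0.000913). Col6a6 held 3, 11 and 4 counts in null liver, near the floor, and entered the test through fat, where it was higher. The widest difference of all members was that of Col15a1, with 96.1, 73.9 and 106 FPKM in null fat and 0.90, 0.50 and 0.849 FPKM in null liver, or 6.88 on the log2 scale (SE 0.307, adjusted p = 2.47e-06). Col17a1, the hemidesmosome collagen of epithelia, was called higher in null fat (adjusted p = 0.00150), on 448, 58 and 166 counts against 0, 3 and 2 in null liver, too few there to set a fold. The keratinocyte and mammary epithelium markers summed to 203, 25.8 and 97.3 CPM in the same libraries, in the same order.

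The 4 genes higher in null liver belong to different families. Col18a1, the other multiplexin, held 163, 181 and 196 FPKM in null liver and 32.4, 34.3 and 48.1 FPKM in null fat, so that the tissues did not overlap (log2 difference -2.29, SE 0.224, adjusted p = 6.23e-05). The multiplexins thus differed between the tissues in opposite directions. Col27a1, a fibrillar collagen known from cartilage, held 1.25, 5.47 and 7.98 FPKM in null liver against 0.332, 0.384 and 0.899 FPKM in null fat (log2 difference -3.25, adjusted p = 0.00358), and liver null replicate 1 lay close to the highest fat library. Col14a1, a collagen that associates with fibrils, and Col13a1, a transmembrane collagen, were lower in fat by 1.16 and 1.42 (adjusted p = 0.0315 and 0.0317). These 2 calls were lost in most fits that left out 1 library. Both were lost without liver null replicate 2, fat null replicate 2 or fat null replicate 3. Col14a1 was also lost without liver null replicate 1 or 3, and Col13a1 without fat null replicate 1. Col11a2 and Col20a1 were not called (log2 differences -0.075 and 0.63).

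The upstream windows of the multiplexins are shown side by side because these related genes differed between the tissues in opposite directions, both cut to bases outside annotated exons. That of Col15a1 is chr4:47207762-47208011 (plus strand), and that of Col18a1 is chr10:77166549-77166780 (minus strand). Capitals mark the CCAAT box (read as ATTGG from the opposite strand) and the GC box (read as CCGCCC from the opposite strand):
Col15a1 upstream: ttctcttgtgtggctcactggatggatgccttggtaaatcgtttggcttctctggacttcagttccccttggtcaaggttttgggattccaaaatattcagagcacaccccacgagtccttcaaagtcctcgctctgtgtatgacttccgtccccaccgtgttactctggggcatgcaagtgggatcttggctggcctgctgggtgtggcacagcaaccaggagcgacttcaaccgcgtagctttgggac
Col18a1 upstream: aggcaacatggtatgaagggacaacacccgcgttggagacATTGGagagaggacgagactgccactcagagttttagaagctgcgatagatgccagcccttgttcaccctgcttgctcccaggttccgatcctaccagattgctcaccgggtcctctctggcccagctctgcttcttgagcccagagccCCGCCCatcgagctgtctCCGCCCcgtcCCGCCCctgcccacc
The Col18a1 window, 60.8% G or C, holds the GC box at 3 places and the CCAAT box at 1, and the Col15a1 window, 53.6% G or C, holds none of the 3 motifs. A second Col18a1 window in the table lay in annotated exons and is not shown.

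**Figure D2:**
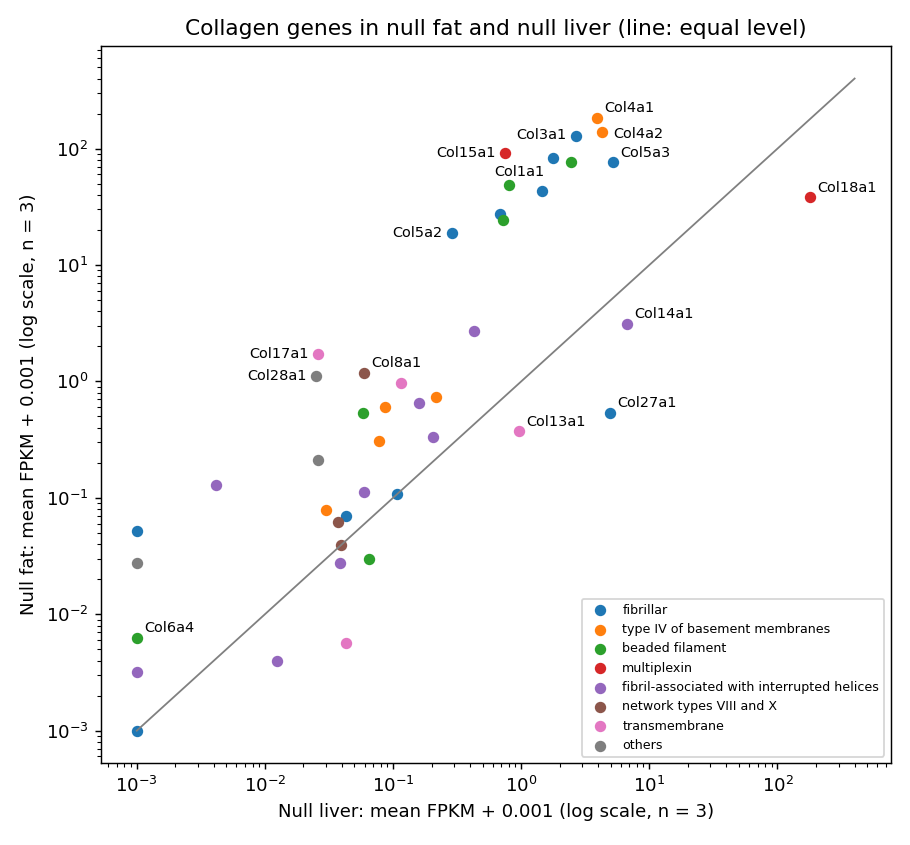
Mean deposited FPKM of each of the 44 collagen genes in null liver (horizontal) and null fat (vertical), both on log axes after adding 0.001, with 3 libraries a group and 1 colour a family; the line marks equal levels. Most genes lie above the line. Col18a1, Col14a1, Col27a1 and Col13a1, the 4 called higher in liver, lie below it, as do a few genes near the floor, such as Col25a1 and Col6a5.

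In fat, the comparison of hHKDC1 OE with null asks whether collagen RNA in this depot moved with the transgene in liver. The abundant collagens were low in 2 hHKDC1 OE libraries and high in the other. Summed over all members, collagen RNA came to 10305, 8234 and 12042 CPM in null fat and to 3901, 13982 and 5832 CPM in hHKDC1 OE fat. The lowest, next lowest and highest of the 6 libraries were thus all hHKDC1 OE libraries, and the groups overlapped. By edgeR's quasi-likelihood test, 0 of the 34 members tested passed an adjusted p of 0.05 in either direction, as did 0% of all 16380 genes tested in either direction (smallest adjusted p 0.133). At an unadjusted p under 0.05, 2 members were higher and 1 lower, beside 11.3% and 6.39% of all genes. By sign alone 27 members were lower and 7 higher, where 53.9% of all genes were lower and 46.1% higher, and the median log2 fold change was -0.38 for the members and -0.045 for all genes. This median depended on the hHKDC1 OE libraries: it was -0.073 without replicate 1 (all genes -0.039), -1.08 without replicate 2 (all genes -0.050) and -0.17 without replicate 3 (all genes -0.045).

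All 6 type IV genes had a negative log2 fold change in fat, between -1.14 and -0.38, and none passed the test. Col4a1 held 1821, 1726 and 2014 CPM in null fat and 739, 2639 and 898 CPM in hHKDC1 OE fat. The null libraries lay close together and the hHKDC1 OE libraries on both sides of them, and the log2 fold change was -0.38 (SE 0.488, adjusted p = 0.695). Col4a2 took the same order, at 1255, 1084 and 1350 CPM against 444, 1823 and 558 CPM (-0.39, SE 0.528, adjusted p = 0.714). Col4a4 and Col4a3, the pair with the shared gap, held 9.73, 6.82 and 9.36 CPM against 1.75, 14.5 and 1.78 CPM, and 3.95, 3.22 and 5.08 CPM against 0.332, 4.69 and 0.492 CPM. Both were several-fold lower in hHKDC1 OE replicates 1 and 3 than in any other fat library, while replicate 2 lay within or above the null range (log2 fold changes -0.52 and -1.14). Col4a5 held 9.67, 4.53 and 5.83 CPM against 3.27, 5.82 and 3.63 CPM (-0.65, SE 0.399, adjusted p = 0.416), and Col4a6 1.28, 0.620 and 0.588 CPM against 0.332, 0.880 and 0.246 CPM (-0.75, SE 0.671, adjusted p = 0.566). The lowest 2 libraries were again replicates 1 and 3.

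The fibrillar genes of types I, III and V were highest in hHKDC1 OE replicate 2 and lowest in replicate 1, or in replicate 3 for Col5a3. Col3a1 held 1768, 1209 and 2134 CPM in null fat and 618, 2319 and 1283 CPM in hHKDC1 OE fat (log2 fold change -0.28, SE 0.482, adjusted p = 0.776). Col1a1 held 791, 553 and 849 CPM against 301, 1029 and 515 CPM (-0.25, SE 0.441, adjusted p = 0.779). Col1a2 held 848, 503 and 828 CPM against 374, 869 and 807 CPM. Col3a1 and Col1a2, unlike Col1a1, were within the null range in hHKDC1 OE replicate 3, and the ratio of Col1a1 to Col1a2 per length ran from 1.21 in that library to 2.24 in hHKDC1 OE replicate 2. The type V chains Col5a1, Col5a2 and Col5a3 held 302, 259 and 387, 277, 211 and 245, and 616, 627 and 851 CPM in null fat. In hHKDC1 OE fat they held 107, 436 and 119, 87.2, 342 and 128, and 281, 1078 and 249 CPM, in each case below every null library in replicates 1 and 3 and above every null library in replicate 2. Their log2 fold changes were -0.52, -0.39 and -0.38, and none passed the test.

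None of the type VI genes tested in fat passed. Col6a1, Col6a2 and Col6a3 held 409, 292 and 659, 481, 391 and 749, and 399, 287 and 492 CPM in null fat, and 149, 656 and 249, 168, 742 and 285, and 174, 526 and 262 CPM in hHKDC1 OE fat, with log2 fold changes of -0.37, -0.44 and -0.29, and the groups overlapped. Col6a6 held 5.84, 6.33 and 7.6 CPM against 4.12, 10.1 and 6.82 CPM, with a log2 fold change of 0.092 (SE 0.369). Col6a5 and Col6a4, long chains that can stand in for Col6a3, held more counts in every hHKDC1 OE library than in any null library. Col6a5 held 11, 7 and 0 counts in null fat and 76, 43 and 102 counts in hHKDC1 OE fat, so that the groups did not overlap. Its log2 fold change was 3.44 (SE 0.972, adjusted p = 0.159), and it entered the test through the hHKDC1 OE libraries, where it was high. Col6a4 held 2, 1 and 0 counts in null fat and 176, 9 and 214 counts in hHKDC1 OE fat. It was below the minimum of 10 counts in all but 2 fat libraries and so was not tested by edgeR, and it held 0 counts in all 6 liver libraries. Col6a6, Col6a5 and Col6a4 lie in tandem on the minus strand of chromosome 9, 27917 and 28810 bases apart. Col6a4 shares 3.39% of its exonic bases with the annotated genes Gm36993 and Gm47575, and the libraries did not keep strand, so reads of genes on opposite strands cannot be told apart there. The window before Col6a5 (chr9:105960644-105960893, minus strand) is shown as that of the member with the largest rise among those tested, with GGGCGG in capitals:
Col6a5 upstream: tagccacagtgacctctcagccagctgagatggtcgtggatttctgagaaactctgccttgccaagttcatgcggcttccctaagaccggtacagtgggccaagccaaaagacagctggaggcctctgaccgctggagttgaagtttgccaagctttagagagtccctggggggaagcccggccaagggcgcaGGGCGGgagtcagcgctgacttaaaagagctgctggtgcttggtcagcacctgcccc

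**Figure D3:**
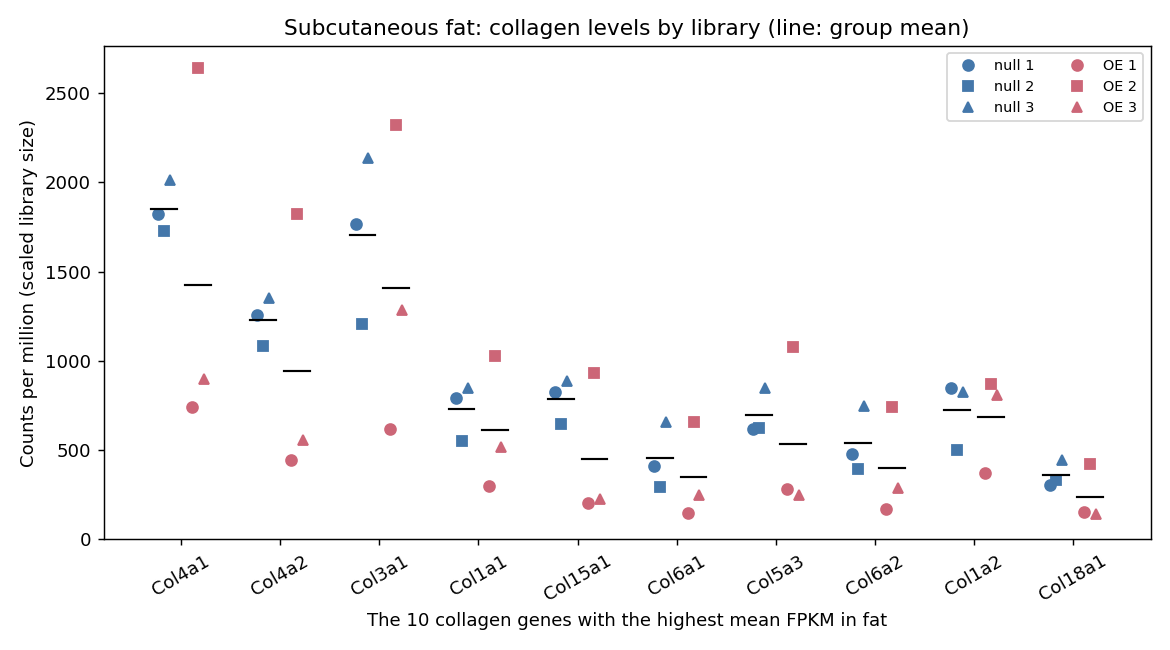
CPM in each of the 6 fat libraries for the 10 collagen genes with the highest mean FPKM in fat (blue, null; red, hHKDC1 OE; circle, square and triangle, replicates 1, 2 and 3; line, group mean). The red squares of hHKDC1 OE replicate 2 lie at or near the top of each gene, and the red circles of replicate 1 at or near the bottom.

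Both multiplexins were lower by sign. Col15a1 held 824, 647 and 885 CPM in null fat and 201, 929 and 224 CPM in hHKDC1 OE fat (log2 fold change -0.80, SE 0.591, adjusted p = 0.492). Col18a1 held 307, 332 and 445 CPM against 156, 420 and 142 CPM (-0.60, SE 0.434, adjusted p = 0.486). For both, replicates 1 and 3 were below every null library and replicate 2 was not. Set against the type IV chain of the same library, Col15a1 over Col4a1 per length was 0.532, 0.441 and 0.517 in the null libraries, against 0.320, 0.414 and 0.293 in those of hHKDC1 OE fat. This ratio did not overlap between the groups, but 3 libraries against 3 cannot give an exact permutation p below 0.10. Of the 9 ratios between chains computed, 0 were higher and 2 lower without overlap in fat, the other being Col4a3 over Col4a4 (0.433, 0.503 and 0.578 against 0.201, 0.345 and 0.294). In liver 2 were higher and 1 lower without overlap, and there Col15a1 over Col4a1 ran the other way, at 0.243, 0.148 and 0.187 in null and 0.409, 0.260 and 0.760 in hHKDC1 OE libraries.

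Away from the abundant chains, 2 more members lay apart between the groups. Col17a1 held 27.2, 3.60 and 8.88 CPM in null fat and 0.663, 2.05 and 0.492 CPM in hHKDC1 OE fat. Null replicate 1 stood far above the other null libraries. The log2 fold change was the lowest of the members tested, -3.61 (SE 0.892, adjusted p = 0.137). The keratinocyte and mammary epithelium markers summed to 203, 25.8 and 97.3 CPM in null fat and to 14.2, 19.5 and 17.2 CPM in hHKDC1 OE fat. Their part in the Col17a1 difference was not tested. Col11a2, a chain of cartilage type XI collagen, held 1.22, 0.930 and 0.802 CPM against 3.88, 2.10 and 2.77 CPM (1.57, SE 0.416, adjusted p = 0.144), while 1 of the 5 cartilage markers was at 0 in every fat library and the list summed to at most 4.59 CPM. Among the 34 members tested, groups without overlap were thus found for 2 higher and 1 lower, beside 12.5% and 10.2% of all genes tested, and Col6a4, not tested, was also higher without overlap. Col6a5 counts among the 2 only because its hHKDC1 OE libraries passed the filter. Col17a1, the 1 lower, held 14, 42 and 8 counts in hHKDC1 OE fat and passed it through its null libraries, where it was high. The remaining named members moved within the spread of the libraries: Col27a1 by 0.73, Col20a1 by 0.11, Col14a1 by -0.98 and Col22a1 by -1.35 on the log2 scale.

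**Figure D4:**
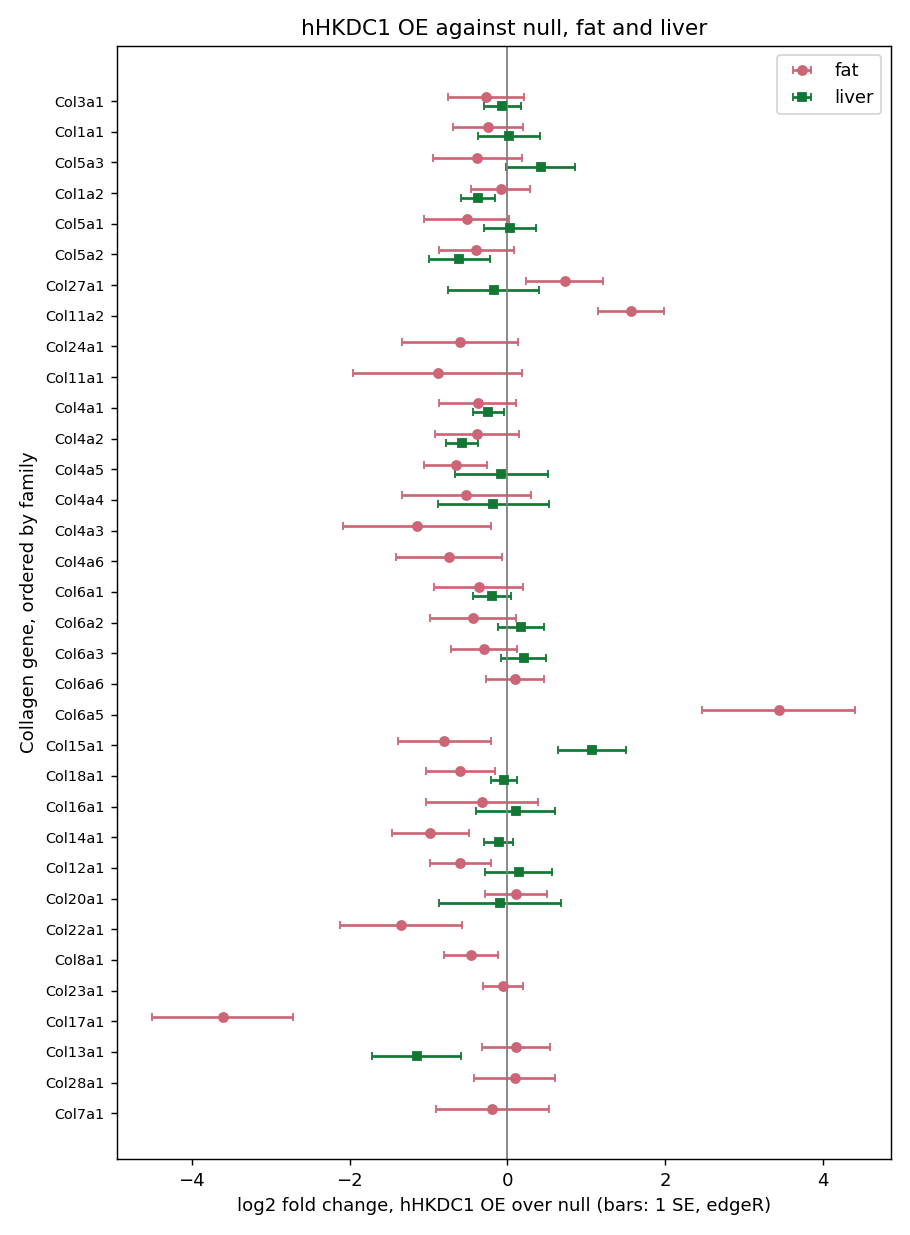
Log2 fold change of hHKDC1 OE over null with 1 SE on either side, from edgeR, for the 34 collagen genes tested in fat (circles) and the 21 tested in liver (squares), ordered by family. Most fat values sit left of 0 with bars that reach it or come near, and Col17a1, Col11a2 and Col6a5 stand farthest from 0 relative to their bars.

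The order of the libraries was shared by many members. Replicate 2 of hHKDC1 OE fat was the highest of the 6 fat libraries for 15 of the 34 members tested, beside 11.1% of all genes, and replicates 1 and 3 were the lowest 2 of the 6 for 22 members, beside 21.5% of all genes. These counts describe the libraries and were chosen after the values were seen. Without hHKDC1 OE replicate 2, the same edgeR fit called 11 of 36 members lower and 3 higher, beside 7.53% and 11.4% of all genes. The 11 were Col4a1, Col4a2, Col4a3, Col4a4, Col5a1, Col5a2, Col5a3, Col15a1, Col16a1, Col17a1 and Col18a1, and the 3 were Col6a4, Col6a5 and Col11a2. Of these, Col15a1 had a log2 fold change of -1.90, Col4a1 of -1.19 and Col18a1 of -1.29, whereas Col3a1 and Col1a1 did not pass. The fit leaves out the 1 hHKDC1 OE library that ran against the others. Col6a4 and Col6a5 entered it through hHKDC1 OE replicates 1 and 3, and Col4a3 and Col17a1 through the null libraries, in each case where they were high. These calls are thus a description of the remaining libraries and no separate support. Leaving out any other fat library gave 0 calls. DESeq2 on all 6 libraries called Col6a4, Col6a5 and Col11a2 higher and Col17a1 lower, beside 6.46% and 0.995% of all genes.

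Markers of other cell types also differed between the fat libraries. The B cell list (8 of 8 markers detected) summed to 2.07, 1.92 and 3.53 CPM in null fat and to 831, 46.9 and 608 CPM in hHKDC1 OE fat, and the T cell list (6 of 6) to 4.74, 4.09 and 10.7 CPM and to 421, 30.6 and 466 CPM. Lymph node stroma markers (5 of 5) summed to 5.41, 1.49 and 3.10 CPM and to 146, 10.9 and 90.9 CPM. For all 3 lists, replicates 1 and 3 were highest and replicate 2 lay between them and the null libraries, which is also the order of Col6a4. The summed levels of stromal and nerve-sheath lists were lower in the same libraries, although by fitted sign 3 of the 7 fibroblast and progenitor markers and 2 of the 6 mural markers were higher in hHKDC1 OE fat: the mural and smooth muscle list summed to 989, 897 and 928 CPM against 421, 1048 and 506 CPM, the Schwann list to 286, 345 and 264 CPM against 92.3, 271 and 121 CPM, and the fibroblast and adipocyte progenitor list to 2272, 1615 and 1686 CPM against 1084, 2229 and 1532 CPM. The endothelial list, at 1068, 1072 and 985 CPM against 802, 1226 and 838 CPM, was likewise below every null library in replicates 1 and 3, and the adipocyte list, at 18249, 23896 and 23951 CPM against 14796, 23459 and 19727 CPM, in replicate 1 alone. Other lists did not follow the collagen order. Skeletal muscle markers summed to 19042, 22996 and 535 CPM in null fat and to 15530, 1052 and 2544 CPM in hHKDC1 OE fat, and the keratinocyte and mammary epithelium list was highest in null fat, as given above. Both the macrophage and the hepatocyte list separated the groups. The macrophage list summed to 429, 196 and 406 CPM in null fat and to 856, 592 and 1124 CPM in hHKDC1 OE fat, higher in every hHKDC1 OE library, and the hepatocyte list to 2526, 2573 and 7440 CPM against 1963, 705 and 1059 CPM, lower in every one. The hepatic stellate list, at 947, 918 and 242 CPM against 532, 290.2 and 281 CPM, overlapped. The part of these cells in the collagen values was not tested.

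**Figure D5:**
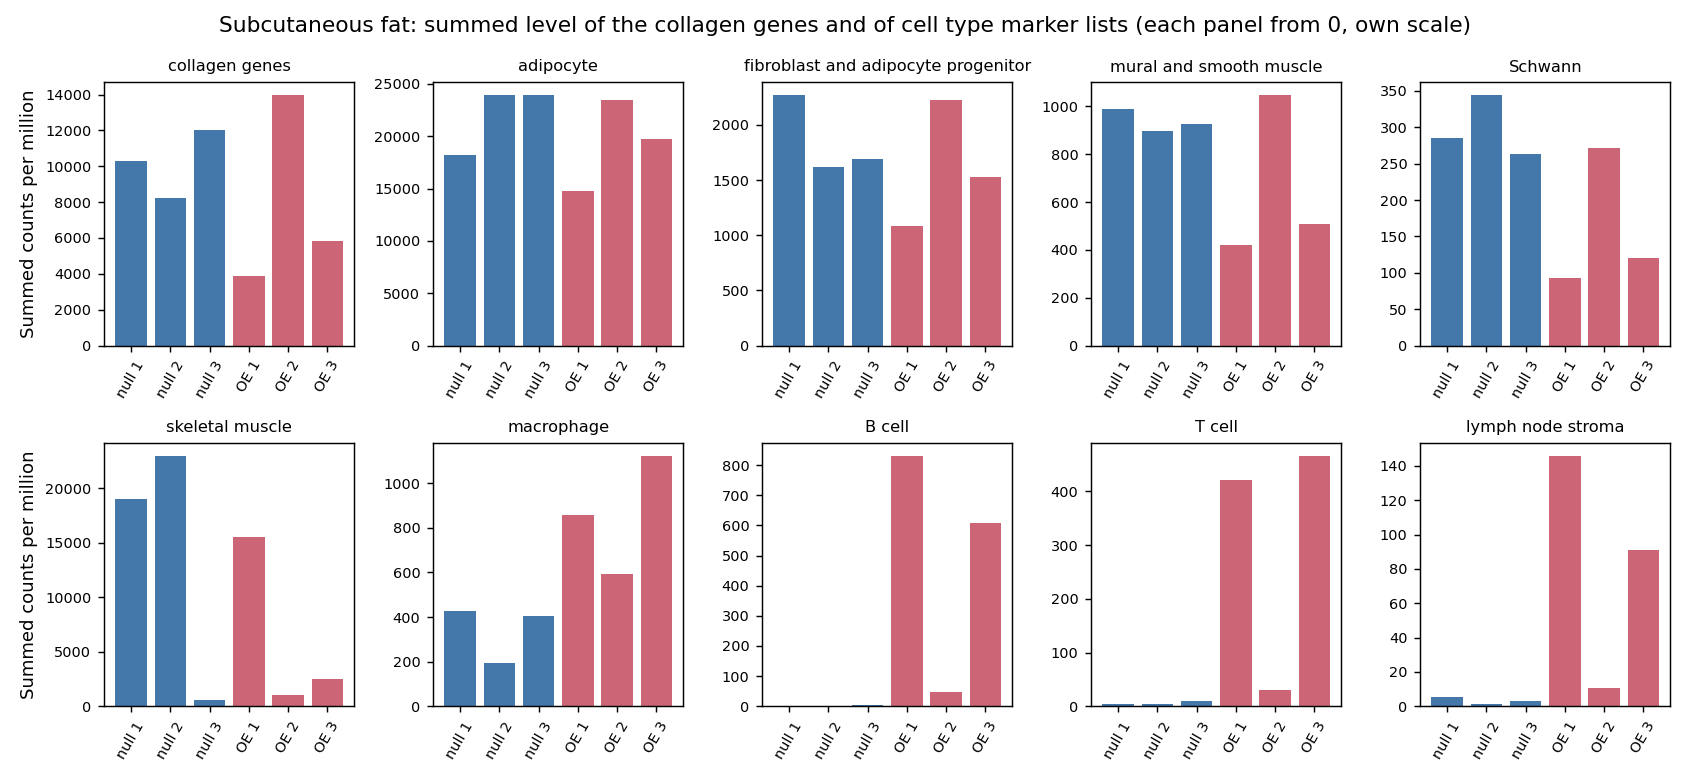
Summed CPM in each fat library of the 44 collagen genes and of 9 cell type marker lists, each panel from 0 on its own scale (blue, null; red, hHKDC1 OE). Collagen, mural and Schwann panels are low in hHKDC1 OE replicates 1 and 3, and B cell, T cell and lymph node stroma panels are high in the same 2 libraries.

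In liver, hHKDC1 OE was compared with null in the tissue that expresses the transgene. Collagen RNA summed to 997, 1167 and 1326 CPM in null liver and to 1013, 1123 and 1246 CPM in hHKDC1 OE liver, and the groups overlapped over most of their range. Of the 21 members tested, 0 passed in either direction, as did 0% of all 13351 genes in either direction (smallest adjusted p 0.0573). With the replicate number as a block, again 0 members were called, beside 0.0974% of all genes called higher and 0.03% called lower. At an unadjusted p under 0.05, 1 member was higher and 1 lower, beside 3.89% and 3.05% of all genes, and DESeq2 called 0 members, beside 0.352% and 0.384% of all genes. The median log2 fold change of the members was -0.077, beside 0.0064 for all genes. It changed sign with the libraries included, from -0.19 without null replicate 1 to 0.10 without null replicate 3 and 0.035 without hHKDC1 OE replicate 1.

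Col18a1, the dominant collagen of liver, held 818, 941 and 1028 CPM in null liver and 844, 873 and 994 CPM in hHKDC1 OE liver. The hHKDC1 OE libraries lay inside the null range, and the log2 fold change was -0.040 (SE 0.165, adjusted p = 0.983). Col15a1, the other multiplexin, held 4.08, 2.35 and 4.03 CPM against 4.80, 4.52 and 12.7 CPM. The groups did not overlap, but the difference rested largely on hHKDC1 OE replicate 3 (log2 fold change 1.07, SE 0.430, adjusted p = 0.654). Without a filter on low counts this was the single member called, at an adjusted p of 0.0317, beside 0.726% of all genes. Among the type IV genes, Col4a2 held 16.7, 19.8 and 25.7 CPM against 11.5, 15.5 and 14.8 CPM, without overlap (-0.57, SE 0.202, adjusted p = 0.606), and Col4a1 19.7, 18.6 and 25.4 CPM against 13.8, 20.4 and 19.6 CPM (-0.24, SE 0.199). The minor chains were near the floor. Col4a5 held between 0.369 and 1.5 CPM and Col4a4 between 0.160 and 1.12 CPM over the 6 liver libraries, with log2 fold changes of -0.077 and -0.18, and Col4a3 and Col4a6, not tested, at most 0.745 and 0.585 CPM.

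The fibrillar genes of liver were low and did not move together. Col3a1 held 19.5, 12.8 and 25.1 CPM in null liver and 19.1, 16 and 19.8 CPM in hHKDC1 OE liver, and Col1a1 5.06, 6.71 and 14.1 CPM against 7.75, 6.12 and 12.3 CPM. The values interleaved for both, with log2 fold changes of -0.065 and 0.019. Col1a2 held 12.7, 10.8 and 16.1 CPM against 10.7, 8.24 and 11.7 CPM (-0.37, SE 0.213, adjusted p = 0.795). Col5a1 held 2.90, 3.84 and 6.01 CPM against 4.12, 5.43 and 3.47 CPM (log2 fold change 0.028), and Col5a2 1.61, 2.35 and 2.11 CPM against 1.29, 1.54 and 1.12 CPM, also without overlap (-0.61, SE 0.385). Among the 21 members tested, groups without overlap were found for 1 higher and 2 lower, beside 6.31% and 6.18% of all genes tested. Of the members with too few counts to be tested, Col8a2 lay higher and Col6a5 and Col23a1 lower without overlap in scaled CPM. Col5a3 was highest in hHKDC1 OE replicate 2, at 61.3 CPM, with the other 5 liver libraries between 15.9 and 34.1 CPM. Col27a1 varied from 11.6 to 77.7 CPM within null liver alone.

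Of the type VI genes, Col6a1, Col6a2 and Col6a3 held 8.83, 5.54 and 9.24, 4.08, 4.82 and 5.77, and 3.95, 6.38 and 8.68 CPM in null liver. In hHKDC1 OE liver they held 7.13, 5.96 and 7.52, 7.19, 3.83 and 5.49, and 7.13, 6.97 and 7.84 CPM, with log2 fold changes of -0.20, 0.17 and 0.21. Col6a6 held at most 0.717 CPM and was not tested. Col13a1 had the largest fall by size in liver, -1.15 (SE 0.564, adjusted p = 0.764), and Col14a1 a change of -0.11. The hepatic stellate list summed to 203, 189 and 241 CPM in null liver and to 154, 220 and 161 CPM in hHKDC1 OE liver, the liver sinusoidal endothelial list to 85.0, 103 and 88.2 CPM against 44.2, 84.2 and 52.0 CPM, and the hepatocyte list to between 106952 and 111063 CPM against between 64095 and 85171 CPM. The Kupffer list went the other way without overlap, at 53.1, 54.8 and 87.3 CPM against 157, 89.4 and 90.9 CPM. The macrophage list, at 86.8, 82.4 and 110 CPM against 212, 111 and 109 CPM, overlapped. The part of these cells in the collagen values was not tested.

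Whether the treatment acted differently on the tissues was asked with an interaction term over all 12 libraries. Of 34 members, 0 passed in edgeR, as did 0% of all 17070 genes in either direction (smallest adjusted p 0.139), and 1 member was past an unadjusted p of 0.05 in each direction, beside 9% of all genes higher and 3.67% lower. Col6a5, higher in fat without overlap, had an interaction of 4.46 (SE 1.26, adjusted p = 0.175). In liver it held 10, 5 and 6 counts against 5, 5 and 2. These counts tie, and the groups lay apart only after scaling, with the lowest null library at 0.326 CPM and the highest hHKDC1 OE library at 0.307 CPM. Col15a1, lower by sign in fat and higher by sign in liver, had an interaction of -1.81 (SE 0.805, adjusted p = 0.382). By DESeq2, Col6a5 was the single member called, beside 2.35% of all genes called higher and 0.527% called lower.

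Collagen chains need dedicated partners: prolyl and lysyl hydroxylases and the chaperone Serpinh1 in the endoplasmic reticulum, proteinases that cut the propeptides, lysyl oxidases that crosslink the fibrils, and basement membrane proteins that bind type IV. A list of 85 such genes, with receptors, matrix-degrading enzymes, fibril-associated proteins and the TGF-beta pathway, was set beside the members. Between null fat and null liver, 80 were tested, and 64 were called higher in fat and 6 lower, beside 33.8% and 30.5% of all genes, with a median log2 difference of 2.55, beside 0.088 over all genes. Lox, the lysyl oxidase, was the widest at 8.94, and Sparc, a collagen-binding protein and chaperone, differed by 6.18. In null liver Lox held only 0.124, 0.326 and 0.186 CPM. It entered the test through fat, where it was high, and its fold rests on values near the floor. The 6 higher in liver were Fn1, which encodes fibronectin, P4hb, Ppib and Mia3, which act in the secretory pathway, Bmp1, a procollagen proteinase, and Smad7.

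In fat, 81 partners were tested for hHKDC1 OE against null and 0 passed. By sign, 62 were lower and 19 higher, beside 53.9% and 46.1% of all genes, and all 10 basement membrane partners were lower. The median log2 fold change over the 81 was -0.28, beside -0.045 over all genes. Sparc held 4781, 4801 and 5623 CPM in null fat and 1920, 6321 and 2564 CPM in hHKDC1 OE fat, and Serpinh1 held 569, 440 and 567 CPM against 296, 718 and 335 CPM, in both cases highest in hHKDC1 OE replicate 2 and lowest in replicates 1 and 3, as for Col4a1. P4ha1, the catalytic chain of a prolyl hydroxylase, did not follow this order, at 44.4, 37.2 and 30.01 CPM against 30.7, 34.8 and 46.8 CPM, and neither did Plod2, a lysyl hydroxylase, at 9.61, 10.9 and 10.3 CPM against 6.40, 10.2 and 11.1 CPM.

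Lox was lower in hHKDC1 OE fat by 0.85 on the log2 scale (224, 224 and 159 CPM against 64.5, 164 and 109 CPM, adjusted p = 0.259). Tgfb1, the growth factor that drives collagen transcription, and Smad7, its inhibitor, were higher in every hHKDC1 OE library than in any null library. Tgfb1 held 40.7, 35.3 and 43.4 CPM against 101, 55.4 and 88.5 CPM (1.04, SE 0.236, edgeR adjusted p = 0.134), and Smad7 9.61, 8.81 and 10.3 CPM against 21.8, 13.7 and 18.1 CPM (0.90, SE 0.234, adjusted p = 0.140). DESeq2 called these 2 of the partners higher, at adjusted p of 0.00567 and 0.0219, beside 6.46% of all genes. Ctgf, a target of TGF-beta, and Adamts3, which cuts the amino propeptide of fibrillar collagens, lay lower without overlap (-1.41 and -3.33, adjusted p = 0.273 and 0.137). Adamts3 was near the floor, at 0.730, 0.744 and 0.749 CPM in null fat and 0.142, 0.0489 and 0 CPM in hHKDC1 OE fat. It entered the test through null fat, where it was high. Of the 81 partners, 4 were higher and 6 lower without overlap, where 12.5% and 10.2% of all genes were. In liver, 69 partners were tested and 0 passed. Timp3, an inhibitor of matrix proteinases, changed by -0.97 (adjusted p = 0.512) and Lair1, a collagen receptor of leukocytes, by 1.2 (adjusted p = 0.621). Plod2, near the floor, held 1.05, 0.651 and 0.682 CPM in null liver and 0.246, 0.319 and 0.373 CPM in hHKDC1 OE liver. Of the 69 partners, 4 were higher and 5 lower without overlap, beside 6.31% and 6.18% of all genes.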

How the data were processed

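Liver and subcutaneous fat of null and hHKDC1 OE mice were profiled by RNA sequencing, in 12 libraries (3 per group). The authors deposited a table of raw counts per gene and a table of FPKM, and per the labels' processing notes STAR 2.5, HTSeq 0.6.1 and DESeq2 were used. The libraries were prepared without strand information. The methods name a human genome, but the gene identifiers are mouse Ensembl identifiers, and all 44 members have the coordinates of GENCODE M21 (GRCm38). The deposited FPKM followed from the counts, the deposited gene lengths and size factors computed with DESeq2 over the 12 libraries: 100% of 252371 values above 0 agreed within 1%. Deposited tables of comparisons (log2 fold changes and p-values) were not used, and 0 per-sample columns were left without a sample.

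Counts were tested over all genes with edgeR 4.0.16 (R 4.3.3), using quasi-likelihood F tests, scaling by the trimmed mean of M values, edgeR's expression filter with a minimum count of 10, and Benjamini-Hochberg adjustment over all genes tested. Fat and liver were each fitted on their own 6 libraries, null fat against null liver on the 6 null libraries, and the treatment by tissue interaction on all 12. CPM are scaled within a tissue, and levels were compared between tissues as FPKM. Genes were called at an adjusted p under 0.05. The alternatives were DESeq2 1.42.0, limma 3.58.1 on log2(FPKM + 1) and log2(FPKM + 0.1), other scalings and filters, a replicate block, all 12 libraries in 1 fit and each library left out. The code was tested on simulated counts. Replicates of a group differed by more than counting noise, so none was merged.

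The labels number the replicates alike in each group. In liver, same-numbered null and hHKDC1 OE libraries deviated together (correlations 0.224, 0.187 and 0.104), so the numbers were taken to pair them, as found in the data and not stated by the labels. In fat they did not (0.024, -0.13 and 0.037). Null fat and null liver libraries of the same number also deviated together (0.320, 0.0622 and 0.179). Those of hHKDC1 OE fat and liver did so less (0.0216, 0.0932 and 0.0638). The main fits used no block, and the fits with a replicate block are given as an alternative.

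All 44 members could be named. Those described with values were the chains of types I, III, IV, V and VI (near the floor, as a range), the 10 with the highest mean FPKM in a tissue, and the 4 largest rises and falls among those tested. Other genes were partners from 1 list of 85 and markers used as summed CPM. The members and lists were chosen with earlier results of these data known. Sequences are from the RefSeq promoter table (GRCm38.p6), which held 35 of the 44 members, and exons from GENCODE M21.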

Additional observations from a re-analysis of the deposited data

Results flagged for a closer look

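Col6a5 had an interaction of 4.46 on the log2 scale between the effect of hHKDC1 OE in fat and that in liver. DESeq2 gave this interaction an adjusted p of 0.0165 and edgeR's quasi-likelihood test an adjusted p of 0.175, so it was called by DESeq2 and not by edgeR. In CPM the hHKDC1 OE libraries lay higher than null without overlap in fat and lower than null without overlap in liver. The liver values rest on at most 10 counts a library, and the liver counts themselves tie between the groups.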

How the results depend on the processing

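In fat, where 0 members passed, DESeq2 called 3 higher and 1 lower, the fit without a filter on low counts 1 and 1 (Col6a4 and Col17a1, beside 2.42% and 0.268% of all genes), and the fit of all 12 libraries 1 and 1 (Col6a5 and Col17a1, beside 4.51% and 0.621%); DESeq2 also called 2 partner genes higher. Leaving out each library gave 0 to 3 higher and 0 to 11 lower, the highest counts without hHKDC1 OE replicate 2. In liver, the fit without a filter called 1 higher. Between null fat and null liver, library size alone left 2 lower and a minimum of 10 counts in every library left 15 higher. Leaving out each library gave 23 to 25 higher and 2 to 3 lower, beside 29.4% to 32.7% and 25.8% to 28% of all genes. For the interaction DESeq2 called 1 higher, and leaving out each fat library gave 0 to 3 lower, the 3 (Col5a1, Col15a1 and Col18a1, beside 2.86% of all genes) without hHKDC1 OE replicate 2. The cause of these changes was not tested. With the replicate block, 0 members were called higher and 0 lower in fat, 0 and 0 in liver, and 23 and 4 between the null tissues, so the block changed no count of calls. The median log2 fold change of the members became -0.64 in fat and -0.038 in liver with the block. Over all genes it moved the fat calls from 0 to 159 higher and 9 lower and the liver calls, where the numbers were taken to pair the libraries, from 0 to 13 higher and 4 lower.

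Of the log2 fold changes named, a few changed sign. With library size alone, Col1a2 in fat became 0.057, Col18a1 in liver 0.024 and Col4a5 in liver 0.013; with limma on log2(FPKM + 0.1), Col6a6 in fat became -0.025 and Col27a1 in liver 0.032, and Col27a1 with the replicate block 0.043. Library size alone moved the median log2 fold change of all genes in fat from -0.045 to 0.11. When libraries were omitted 1 at a time, the fat values ran from -0.33 to 0.21 for Col1a2, -0.065 to 0.36 for Col20a1, -0.28 to 0.36 for Col6a6, -1.20 to 0.0060 for Col6a1, -0.85 to 0.080 for Col3a1, -0.85 to 0.078 for Col1a1 and -0.86 to 0.0029 for Col6a3. The liver values ran from -0.29 to 0.030 for Col14a1, -1.04 to 0.27 for Col4a4, -0.39 to 0.31 for Col4a5, -0.31 to 0.57 for Col1a1, -0.042 to 0.50 for Col6a3, -0.18 to 0.36 for Col5a1, -0.12 to 0.039 for Col18a1, -0.65 to 0.39 for Col27a1, -0.28 to 0.18 for Col3a1, -0.068 to 0.37 for Col6a2 and -0.25 to 0.77 for Col5a3. None of these passed the test in the fit of all libraries. Members with few counts were not tested in the edgeR fits with a filter, and which of them entered a fit differed between the alternatives.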
